A study of Rattus norvegicus with 20 samples.

Results

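Cyp1a1, Cyp1a2, Cyp1b1, Ahr and Tiparp, genes of the aryl hydrocarbon receptor (AhR) pathway, were read in rat liver after short exposure to isodecyl diphenyl phosphate (IDDP), an aryl phosphate that serves as a flame retardant and plasticiser. Every probe set of the array whose annotation gave exactly 1 of these 5 symbols was taken, which gave 7 probe sets of the 31042 that were tested. They were 1370269_at for Cyp1a1, 1387243_at for Cyp1a2, 1368990_at for Cyp1b1, 1369146_a_at and 1369147_at for Ahr, and 1374446_at and 1385407_at for Tiparp. All 7 were tested, since no filter on brightness was applied. The study used 20 male Harlan Sprague-Dawley rats, 1 Affymetrix array per rat, with corn oil given to all of them by gavage. The 5 control rats received corn oil alone (0 mg/kg), and groups of 3 rats received IDDP at 66, 132, 263.6, 527.1 or 1054.2 mg/kg body weight, with 0.169 mmol/kg at the lowest dose and 2.7 mmol/kg at the highest. Dosing was once a day for 4 days, and a piece of the left liver lobe was taken on day 5. The labels used here give no age.

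The AhR is a transcription factor that waits in the cytoplasm with chaperones until a ligand binds it. The ligand can be a dioxin, a polycyclic aromatic hydrocarbon, a dietary indole or a product of tryptophan. The receptor then enters the nucleus, pairs with ARNT and binds short DNA motifs near its target genes. In liver the best known targets are the monooxygenases Cyp1a1, which is low in unexposed liver and highly inducible, and Cyp1a2, which hepatocytes around the central vein make in quantity without any inducer. Cyp1b1 is a related monooxygenase found mostly outside hepatocytes. Tiparp is an ADP-ribosyltransferase that is itself a target and dampens the receptor, as does the repressor Ahrr.

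The start regions of the members are shown because the receptor reads a 5-base core there. The core is GCGTG, written CACGC on the other strand, and it is part of the longer motif TNGCGTG, written CACGCNA on the other strand. RefSeq promoter windows of rat assembly GRCr8, reaching from 250 bases before to 50 bases after the start of the gene, were matched by symbol for 4 of the 5 genes, Cyp1a1 being the gene without one. The 250 bases before the start are printed 5′ to 3′ on the strand of the gene, in lower case, with each core in capitals, for the gene that fell and for the pair whose windows hold the core. Cyp1a2 is at chr8:66978150-66978399 on the minus strand, Cyp1b1 at chr6:21094315-21094564 on the plus strand and Tiparp at chr2:152063519-152063768 on the plus strand.
Cyp1a2: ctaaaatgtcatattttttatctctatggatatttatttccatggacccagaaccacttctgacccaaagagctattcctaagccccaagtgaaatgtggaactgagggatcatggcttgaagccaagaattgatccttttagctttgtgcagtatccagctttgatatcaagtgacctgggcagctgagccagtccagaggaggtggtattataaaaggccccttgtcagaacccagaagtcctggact
Cyp1b1: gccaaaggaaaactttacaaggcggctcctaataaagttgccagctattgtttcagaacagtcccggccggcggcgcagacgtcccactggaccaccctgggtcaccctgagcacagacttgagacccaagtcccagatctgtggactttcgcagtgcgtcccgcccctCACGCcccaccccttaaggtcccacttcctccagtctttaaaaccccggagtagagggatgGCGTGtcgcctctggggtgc
Tiparp: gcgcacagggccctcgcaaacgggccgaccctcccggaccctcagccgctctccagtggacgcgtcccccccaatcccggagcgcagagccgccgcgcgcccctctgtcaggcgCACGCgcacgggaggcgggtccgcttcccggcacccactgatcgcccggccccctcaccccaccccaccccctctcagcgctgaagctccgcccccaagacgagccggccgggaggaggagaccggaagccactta
The Cyp1b1 window held 2 cores, which begin 81 and 20 bases before the start, and 1 of them was part of the longer motif. The Tiparp window held 1 core, 136 bases before the start on the other strand. The Cyp1a2 and Ahr windows held 0. Of 33469 RefSeq windows of this length, 29.7% held at least 1 core, 10.2% held at least 2, and 4.89% held the longer motif, so a core is a common string. A match describes letters, not binding, and letters farther from the start were not read.

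Cyp1a1 rose and Cyp1a2 fell at the highest dose, while Cyp1b1, Ahr and Tiparp did not pass the test at any dose. At 1054.2 mg/kg, 1 member probe set passed as higher and 1 as lower, against 1.86% of all tested probe sets higher and 1.44% lower (3.3% in either direction, 1024 probe sets). The test was limma's moderated test with Benjamini-Hochberg adjustment over all 31042 probe sets and a threshold of 0.05. At the lower doses 0 of the 7 passed, with 0, 1, 2 and 1 of them at an unadjusted p under 0.05 at 66, 132, 263.6 and 527.1 mg/kg. Of all probe sets, 3.24%, 14.9%, 11.9% and 13.6% had an unadjusted p under 0.05 at those doses, so the members' counts there are not read as a result. The share of all probe sets that passed after adjustment was 0.00644%, 0.0677%, 0.428% and 1.68%. The median change of the 7 probe sets at 1054.2 mg/kg was -0.08 log2, beside -0.01 over all probe sets.

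The arrays were alike in correlation and median after normalisation, but their RNA quality differed. Pearson's r between any 2 arrays, across probe sets, was 0.978 to 0.996, and array medians were 6.32 to 6.41 log2. RNA quality was read as the 3′ minus 5′ difference of the GAPDH and beta-actin controls, where degraded RNA gives larger values, and averaged 1.64 ± 0.27 log2 (SD, n = 5) in controls and 1.68 ± 0.11 (SD, n = 3) at 1054.2 mg/kg. The arrays of the highest difference were replicate 2 at 132 mg/kg (3.25) and replicate 2 at 263.6 mg/kg (2.47). Markers of hepatocytes, such as Alb and Ttr, were bright in every group, which fits the labelled tissue.

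Cyp1a1, the classical indicator gene of AhR activity, read 5.51, 5.79, 5.75, 5.84 and 5.58 log2 in the control rats. It read 5.78, 5.74 and 5.80 at 66 mg/kg, and 6.25, 5.48 and 5.68 at 132 mg/kg. Both groups overlapped the controls, though at 132 mg/kg replicate 1 stood above every control and replicate 2 below every control. The 3 rats at 263.6 mg/kg read 6.91, 5.86 and 6.14, and those at 527.1 mg/kg read 6.39, 6.0 and 5.89. At 1054.2 mg/kg the rats read 6.41, 6.68 and 7.96. All rats of the 3 upper groups were above every control, which at 1054.2 mg/kg held for 6.6% of all probe sets, and 1 rat at the top dose was more than 1 log2 unit above the rest of its group. Of the 15 treated rats, 10 lay above every control and 1 below.

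Averaged by group, the Cyp1a1 level was 5.69 ± 0.14 log2 (SD, n = 5) in controls and 5.77 ± 0.03, 5.81 ± 0.40, 6.30 ± 0.54, 6.09 ± 0.26 and 7.01 ± 0.83 (SD, n = 3 each) as the dose rose. The increase at 1054.2 mg/kg was 1.32 ± 0.27 log2 (SE; 95% interval 0.76 to 1.88), a 2.50-fold rise on the array scale, with a limma adjusted p of 0.00774. The Cyp1a1 probe set is a fairly dim one, brighter over all arrays than 44.4% of probe sets, so this ratio of array values is not read as a fold of RNA. Among the 576 probe sets that rose at this dose, Cyp1a1 ranked 42 by size of change. Without 1054.2 mg/kg replicate 3, the rat with the highest value, the increase was 0.85 and the adjusted p 0.0674, so the call rests on that rat. Leaving out any other rat of these groups kept the call, and the change over all such fits was 0.85 to 1.62.

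At the lower doses the Cyp1a1 change did not pass. It was 0.61 ± 0.27 log2 (SE) at 263.6 mg/kg, with limma p 0.0346 before and 0.371 after adjustment, and 0.40 ± 0.27 at 527.1 mg/kg (adjusted p 0.573). Single left-out rats gave 0.30 to 0.83 at 263.6 mg/kg and 0.25 to 0.50 at 527.1 mg/kg, with the lowest values without replicate 1 of each dose. Both groups lay wholly above the control range, a pattern that 4.82% of all probe sets showed at 263.6 mg/kg and 7.04% at 527.1 mg/kg. At 66 and 132 mg/kg the change was 0.08 and 0.11 log2 with the same standard error, and the 132 mg/kg value turned to -0.11 without replicate 1. The intervals at these low doses, -0.48 to 0.64 and -0.45 to 0.67, still include changes of about the size seen at 263.6 mg/kg.

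Cyp1a2, which oxidises caffeine and aromatic amines, moved the other way. The control rats read 13.40, 13.21, 13.30, 13.44 and 13.44 log2. The rats at 66 mg/kg read 13.31, 13.06 and 13.27, and those at 132 mg/kg read 12.96, 12.97 and 13.29. These groups still overlapped the controls, by 2 rats at 66 mg/kg and by 1 rat at 132 mg/kg. The rats at 263.6 mg/kg read 13.14, 12.97 and 13.02, those at 527.1 mg/kg read 12.80, 12.91 and 13.11, and those at 1054.2 mg/kg read 12.56, 12.61 and 12.92. Every rat of the 3 upper groups was below every control, as were 12 of the 15 treated rats in all.

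The Cyp1a2 group means stepped down with each dose, from 13.36 ± 0.10 log2 (SD, n = 5) in controls through 13.21 ± 0.13, 13.07 ± 0.19, 13.04 ± 0.09 and 12.94 ± 0.15 to 12.70 ± 0.19 (SD, n = 3 each). At 1054.2 mg/kg the change was -0.66 ± 0.11 log2 (SE; 95% interval -0.89 to -0.44), with a limma adjusted p of 0.0011. This is 1.58-fold lower on the array scale. The probe set was brighter over all arrays than 99.1% of probe sets, and its ratio too is not read as a fold of RNA. Leaving out any 1 rat of these groups gave -0.77 to -0.59, with adjusted p up to 0.012. Among the 448 probe sets that fell, Cyp1a2 ranked 184 by size of change.

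At 527.1 mg/kg the Cyp1a2 change of -0.42 ± 0.11 log2 (SE) fell just short, with a limma adjusted p of 0.0518. It passed under several other settings, among them RNA quality as a covariate (adjusted p 0.0254). With single rats left out the change was -0.50 to -0.35 and the adjusted p 0.0498 (without control replicate 2) to 0.22 (without 527.1 mg/kg replicate 1). The changes at 66, 132 and 263.6 mg/kg were -0.15, -0.28 and -0.32 with the same standard error, and the unadjusted p was 0.187, 0.0153 and 0.00789. At 263.6, 527.1 and 1054.2 mg/kg, 4.18%, 4.85% and 5.81% of all probe sets had every treated rat below every control, as Cyp1a2 did.

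**Figure D1:**
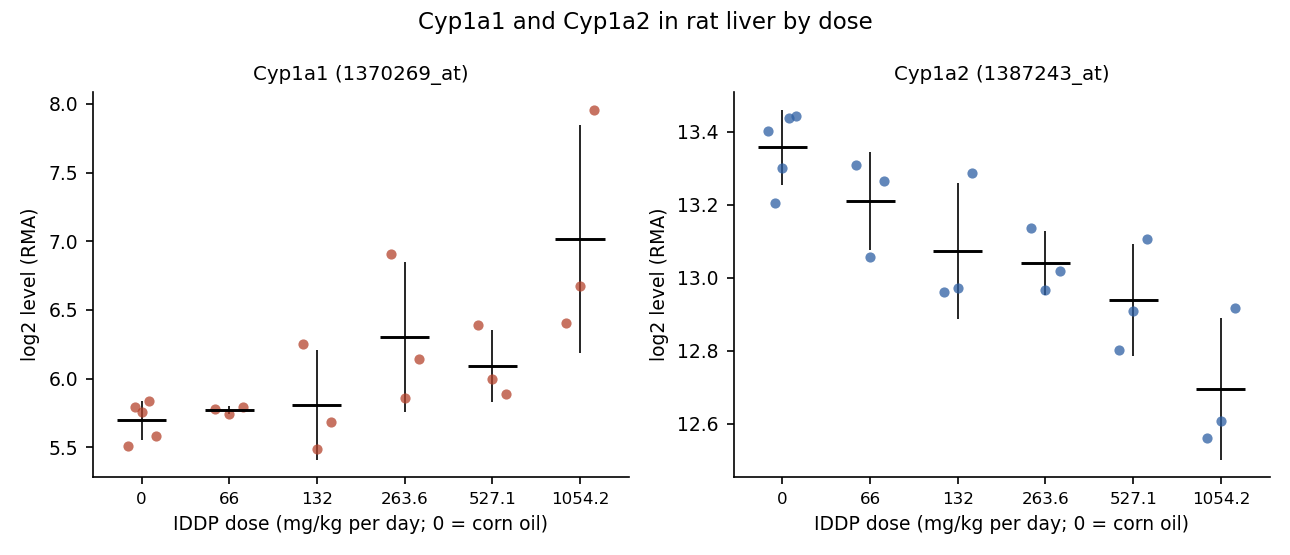
Log2 level of Cyp1a1 (left) and Cyp1a2 (right) in each rat by IDDP dose, where points are rats, horizontal bars are group means and vertical lines are ± SD (n = 5 controls, 3 rats per dose). The 2 panels have their own log2 axes. Cyp1a1 points rise from 5.51 to 5.84 in controls to 6.41 to 7.96 at 1054.2 mg/kg, and Cyp1a2 points fall from 13.21 to 13.44 to 12.56 to 12.92.

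Fitted across all 6 groups as a slope per dose step, Cyp1a1 rose by 0.22 ± 0.05 log2 (SE; limma adjusted p 0.00885) and Cyp1a2 changed by -0.12 ± 0.02 (adjusted p 0.00017). In this trend 1 member passed as higher and 1 as lower, against 2.97% and 2.08% of all probe sets, or 5.05% in either direction. Leaving out any 1 rat kept both calls, with adjusted p up to 0.0197 and 0.000863. The Cyp1a1 slope did not pass without the control group (0.28, adjusted p 0.18) or without the 1054.2 mg/kg group (0.13, adjusted p 0.13). The Cyp1a2 slope was nearly the same without the controls, -0.12, but its adjusted p was then 0.0805.

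No neighbouring pair of doses could be told apart for any member, with 0 of 7 past the threshold in each of the 4 comparisons. The step of Cyp1a1 from 527.1 to 1054.2 mg/kg was 0.92 ± 0.30 log2 (SE), with limma p 0.00592 before and 0.639 after adjustment. It was 0.45 without 1054.2 mg/kg replicate 3, and up to 1.23 without other rats, beside 0.49 from 132 to 263.6 mg/kg, so its place as the largest step rests on that rat. Of all probe sets, 6.08% had an unadjusted p under 0.05 in this step and 0.0129% passed, against 0% that passed in the other 3. For Cyp1a2 the step between these doses was -0.24 ± 0.12 (unadjusted p 0.0561). The Cyp1a1 means ran, from low to high, in the order control, 66, 132, 527.1, 263.6 and 1054.2 mg/kg, so 527.1 mg/kg lay below 263.6 mg/kg by 0.21 ± 0.30 log2, which is less than its error and turned to 0.09 higher without 263.6 mg/kg replicate 1.

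The pair was also read inside each array, as the Cyp1a1 value minus the Cyp1a2 value. A shift shared equally by both genes on an array then drops out. A change of this difference shows that the array values of the genes changed unequally, not that they moved in opposite directions. The 2 probe sets differ widely in brightness, so unequal changes of array values are not read as unequal changes of RNA. Brightness of different probe sets is not comparable, so only the change of this difference is read, not its level. It averaged -7.66 ± 0.21 log2 (SD, n = 5) in controls. It was -7.44 ± 0.11, -7.26 ± 0.49, -6.74 ± 0.46, -6.85 ± 0.40 and -5.68 ± 0.64 (SD, n = 3 each) as the dose rose. The rats at 1054.2 mg/kg had -6.15, -5.93 and -4.96, whereas the controls ran from -7.89 to -7.41.

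The within-array difference changed by 0.92, 0.82 and 1.98 log2 at 263.6, 527.1 and 1054.2 mg/kg, each with an exact two-sided permutation p of 0.0179 over 56 splits of 8 arrays, the smallest this design allows. Adjusted over the 5 doses, this p was 0.0298. At 263.6, 527.1 and 1054.2 mg/kg every rat lay above all controls for Cyp1a1 and below all controls for Cyp1a2. The difference therefore had to separate fully from the controls, and this p adds no support to those ranges. At 263.6 and 527.1 mg/kg neither gene passed alone, so there the difference says only that the array values changed unequally. At 66 and 132 mg/kg the change was 0.22 and 0.40, with exact permutation p of 0.161 and 0.179. With 1 treated rat left out, 21 splits remain and the adjusted p cannot go below 0.0794 for that dose, and the change at 1054.2 mg/kg was then 1.62 to 2.22.

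Ahr, the receptor gene itself, showed no change that passed. Both of its probe sets were dim, brighter over all arrays than 26.7% and 24.5% of probe sets. Flat values this dim are not read as unchanged RNA. Probe set 1369146_a_at read 4.94 to 5.09 log2 in controls and averaged 5.02 ± 0.06 (SD, n = 5). Its dose means were 5.21 ± 0.17, 5.17 ± 0.03, 5.20 ± 0.26, 5.14 ± 0.21 and 5.19 ± 0.15 (SD, n = 3 each). All 5 dose means were higher than the control mean, but every group except 132 mg/kg overlapped the control range, and 4.32% of all probe sets lay wholly above it there.

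The other Ahr probe set, 1369147_at, averaged 5.07 ± 0.18 log2 (SD, n = 5) in controls and 5.04 ± 0.21, 4.91 ± 0.13, 5.02 ± 0.43, 5.07 ± 0.17 and 4.98 ± 0.16 (SD, n = 3 each) across doses. At 1054.2 mg/kg the Ahr changes were 0.18 ± 0.12 and -0.08 ± 0.15 log2 (SE), with limma adjusted p of 0.526 and 0.874. Their 95% intervals were -0.06 to 0.42 and -0.40 to 0.24. These intervals overlap, so the difference in sign is not read as a result.

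Cyp1b1 averaged 6.38 ± 0.24 log2 (SD, n = 5) in controls, where rats ran from 6.10 to 6.69. Its dose means were 6.32 ± 0.10, 6.17 ± 0.26, 6.20 ± 0.21, 6.25 ± 0.23 and 6.25 ± 0.24 (SD, n = 3 each), and every group overlapped the controls. The change at 1054.2 mg/kg was -0.13 ± 0.15 log2 (SE; 95% interval -0.44 to 0.18; limma adjusted p 0.765). The Cyp1b1 probe set is fairly dim, brighter over all arrays than 48.3% of probe sets, so this is not read as unchanged RNA. Its window above is the one with 2 receptor cores.

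Tiparp, which modifies the receptor and is known to be induced by its ligands, was read by a bright and a dim probe set. The bright one, 1374446_at, averaged 8.42 ± 0.16 log2 (SD, n = 5) in controls and 8.43 ± 0.19, 8.48 ± 0.26, 8.19 ± 0.23, 8.31 ± 0.23 and 8.26 ± 0.34 (SD, n = 3 each) across doses. The dim one, 1385407_at, averaged 5.18 ± 0.19 in controls and 5.32 ± 0.40, 5.41 ± 0.60, 4.98 ± 0.07, 5.06 ± 0.08 and 5.46 ± 0.42 across doses. All of these groups overlapped the controls.

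At 1054.2 mg/kg the 2 Tiparp probe sets differed in sign, at -0.16 ± 0.16 and 0.28 ± 0.21 log2 (SE), with limma adjusted p of 0.701 and 0.611. With single rats left out 1374446_at gave -0.30 to 0.02 and 1385407_at gave 0.05 to 0.46, with the ends at 0.02 without replicate 1 and at 0.05 without replicate 2 of that dose. Among the 5 probe sets of Cyp1b1, Ahr and Tiparp, the smallest unadjusted p at any dose was 0.115.

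**Figure D2:**
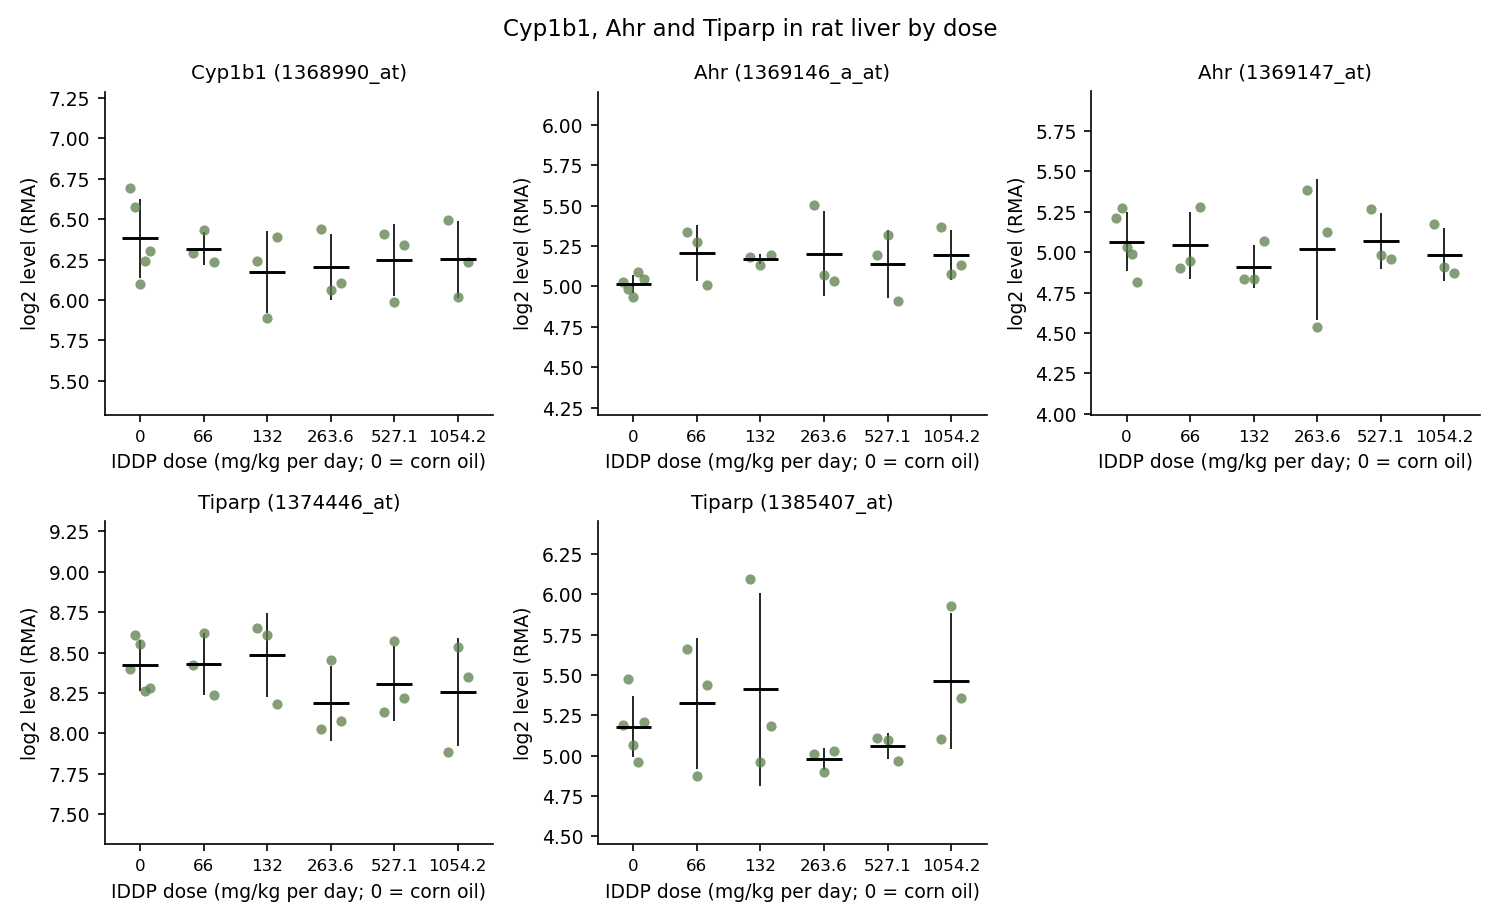
Log2 level of Cyp1b1 and of both probe sets of Ahr and Tiparp in each rat by IDDP dose, drawn as points with group means (bars) and ± SD (lines). The y axes span the same number of log2 units but start at different levels. Control and treated points overlap in every panel and dose, apart from Ahr 1369146_a_at at 132 mg/kg.

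**Figure D3:**
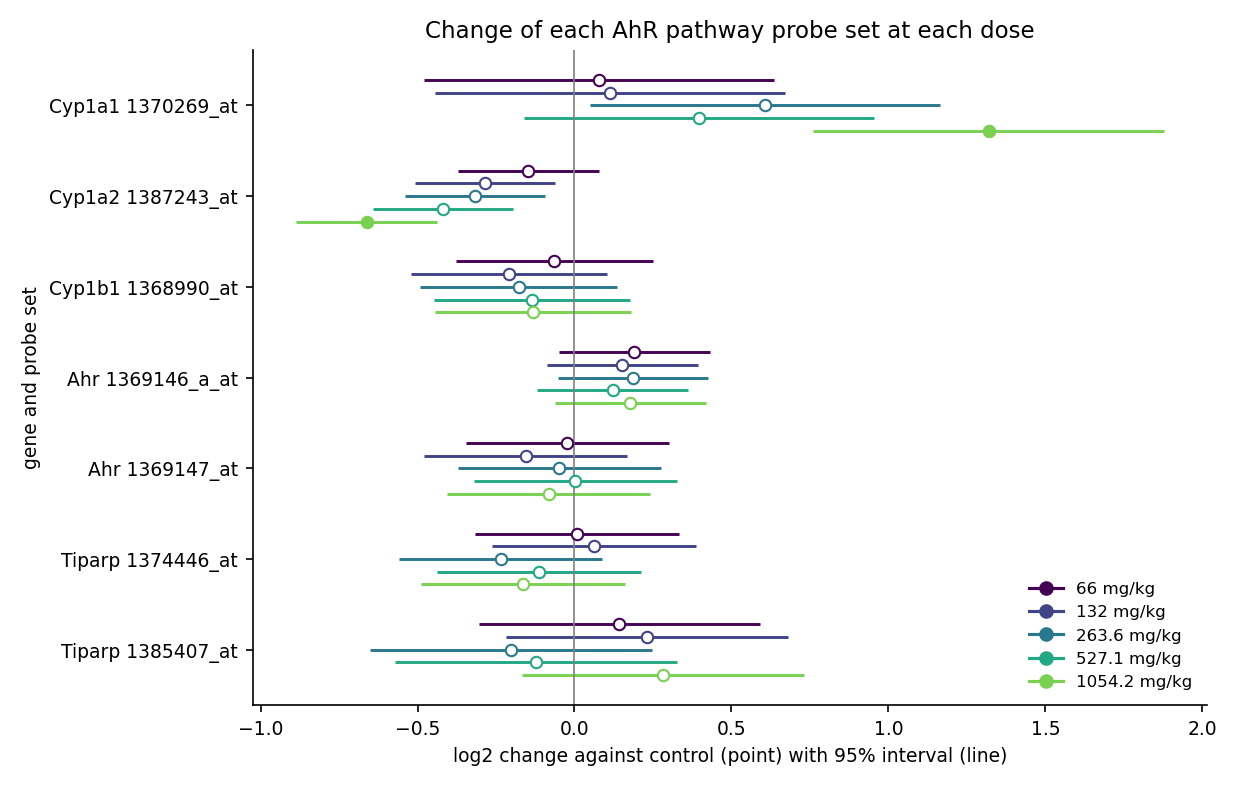
Log2 change against controls with its 95% interval for the 7 probe sets at the 5 doses, filled where the limma adjusted p was under 0.05. The filled points are Cyp1a1 (1.32) and Cyp1a2 (-0.66) at 1054.2 mg/kg.

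Partners and regulators of the receptor were read from a list of 10 genes, of which 8 had a usable probe set. None passed at any dose, and 3 of 8 had an unadjusted p under 0.05 at 1054.2 mg/kg in limma, against 15.1% of all probe sets. Those were the coactivators Ncoa1 (0.21 ± 0.09 log2, SE) and Ncoa2 (-0.21 ± 0.09) and the co-chaperone Ptges3 (0.18 ± 0.08). Arnt, the nuclear partner, differed from control by -0.11 ± 0.12, the chaperone gene Hsp90ab1 by 0.05 ± 0.15, and the repressor Ahrr by -0.14 ± 0.13. The Arnt and Ahrr probe sets were dim, brighter than 40.2% and 28.9% of probe sets. The median of the 8 was -0.03 log2.

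Other known targets of the receptor gave 1 rise among 6 measured of 9 listed. Of all probe sets, 0.428%, 1.68% and 3.3% passed in either direction at 263.6, 527.1 and 1054.2 mg/kg. Nqo1, a quinone reductase that NRF2 also induces, averaged 8.24 ± 0.20 log2 (SD, n = 5) in controls and 8.62 ± 0.22, 8.93 ± 0.35, 9.52 ± 0.11, 9.38 ± 0.25 and 9.86 ± 0.48 (SD, n = 3 each) across doses. The rise passed at 263.6, 527.1 and 1054.2 mg/kg, where it was 1.28, 1.14 and 1.62 log2 with limma adjusted p of 0.00187, 0.00256 and 2.95e-05. Nqo1 thus passed at a pair of doses where Cyp1a1 did not, and whether their responses differ was not tested.

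The remaining targets measured did not pass at 1054.2 mg/kg. The aldehyde dehydrogenase Aldh3a1, strongly inducible by dioxins in rat liver, differed from control by -0.01 ± 0.12 log2 (SE). Its probe set was dim, brighter than 39.9% of probe sets, so this flat value is not read as unchanged RNA. The monooxygenase Fmo1 differed by -0.03 ± 0.20. Nfe2l2, which encodes NRF2, differed by -0.42 ± 0.17 (limma adjusted p 0.235), and the methyltransferase gene Inmt by -1.08 ± 0.47 (adjusted p 0.272). The median of the 6 targets was -0.08 log2. Ugt1a6, Ugt1a7c and Gsta2 were not read.

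Enzymes of tryptophan breakdown, a source of receptor ligands, had 1 fall among 6 measured of 7. At 1054.2 mg/kg, 1.44% of all probe sets passed as lower. Kynu, kynureninase, went from 12.35 ± 0.04 log2 (SD, n = 5) in controls to 11.38 ± 0.37 (SD, n = 3) at 1054.2 mg/kg, a change of -0.97 ± 0.13 (SE; limma adjusted p 0.000118). Tdo2, the first enzyme of the route in hepatocytes, differed by 0.13 ± 0.14, and Ido1, Kmo, Afmid and Aadat did not pass either. The Ido1 probe set was dim, brighter than 27.9% of probe sets, so its value is not read as unchanged RNA. Transcription factors known to act on the Cyp1a genes (Nr1i3, Nr1i2, Rxra, Hnf4a, Nr3c1 and Usf1) gave 0 calls at any dose. At 66 and 1054.2 mg/kg 0 of 6 had a limma unadjusted p under 0.05, and 1 of 6 did at each dose between. Of all probe sets, 3.24%, 14.9%, 11.9%, 13.6% and 15.1% had such a p as the dose rose. The largest value among these factors at 1054.2 mg/kg was 0.39 ± 0.28 for Nr1i3, which encodes the receptor CAR and read 0.54 ± 0.28 at 132 mg/kg.

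Cyp1a2 belongs to the genes expressed by hepatocytes around the central vein, so that group was read beside it. Of 14 measured genes of 15 listed, 4 fell and 1 rose at 1054.2 mg/kg, against 1.44% of all probe sets lower and 1.86% higher. This count includes Cyp1a2 itself, and the list was chosen with earlier results of these data known. Besides Cyp1a2, the genes that fell were Oat, an ornithine-degrading enzyme (-1.46 ± 0.28 log2, SE), Gulo, the last enzyme of vitamin C synthesis (-0.81 ± 0.11), and Rgn, a lactonase (-0.42 ± 0.10). Their limma adjusted p were 0.00458, 0.000237 and 0.0226, and Rgn did not pass without 1054.2 mg/kg replicate 3 (adjusted p 0.183). Aldh1a1, which oxidises retinaldehyde, rose by 1.36 ± 0.10 (adjusted p 1.27e-07).

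At lower doses the pericentral list gave 0 calls at 66 mg/kg, 1 rise at 132 mg/kg, 1 rise and 1 fall at 263.6 mg/kg, and 1 rise and 2 falls at 527.1 mg/kg. Of all probe sets, 0.00644%, 0.0677%, 0.428% and 1.68% passed in either direction at those doses. The rises were Aldh1a1, by 0.62, 1.04 and 1.04 log2 (SE 0.10), of which the value at 132 mg/kg did not pass without replicate 1 of that dose (limma adjusted p 0.0845) or control replicate 1 (0.0546). The falls were Oat at 263.6 and 527.1 mg/kg (-1.33 and -1.20, SE 0.28) and Gulo at 527.1 mg/kg (-0.46 ± 0.11). The fall of Oat at 263.6 mg/kg did not pass without any one of control replicates 1 to 4 or of the 3 rats of that dose (limma adjusted p up to 0.168). Its fall at 527.1 mg/kg did not pass without control replicate 1, 3 or 4 or replicate 1 or 3 of that dose (up to 0.176). The fall of Gulo did not pass without control replicate 1, 3, 4 or 5 or any one rat of that dose (up to 0.219). All 3 highest values came without replicate 1 of the dose.

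Glul, glutamine synthetase, gave different calls by probe set at 1054.2 mg/kg. Its brightest probe set, used for the counts, differed from control by -0.49 ± 0.17 log2 (SE; limma adjusted p 0.155), while the next brightest passed as lower (-0.70 ± 0.17, adjusted p 0.0286) and the dimmest did not pass (-0.60 ± 0.34). Cyp2e1, an ethanol-oxidising monooxygenase, differed by -0.14 ± 0.10 (adjusted p 0.577). The Wnt targets Axin2 and Lgr5 differed from control by -0.34 ± 0.12 and 0.22 ± 0.15, and Cyp7a1, the first enzyme of bile acid synthesis, by 0.87 ± 0.33, and none of these passed at that dose. The Lgr5 probe set was dim, brighter than 19.1% of probe sets, so its value is not read as unchanged RNA. The median of the 14 genes, Cyp1a2 included, was -0.29 log2, beside -0.01 over all probe sets. In the trend over dose, 5 of the 14 passed as lower and 2 as higher, against 2.08% and 2.97% of all probe sets. Axin2 was among the lower (-0.07 per dose step, limma adjusted p 0.0449) and Cyp7a1 among the higher. Neither call held with every single rat left out (adjusted p up to 0.101 and 0.11).

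**Figure D4:**
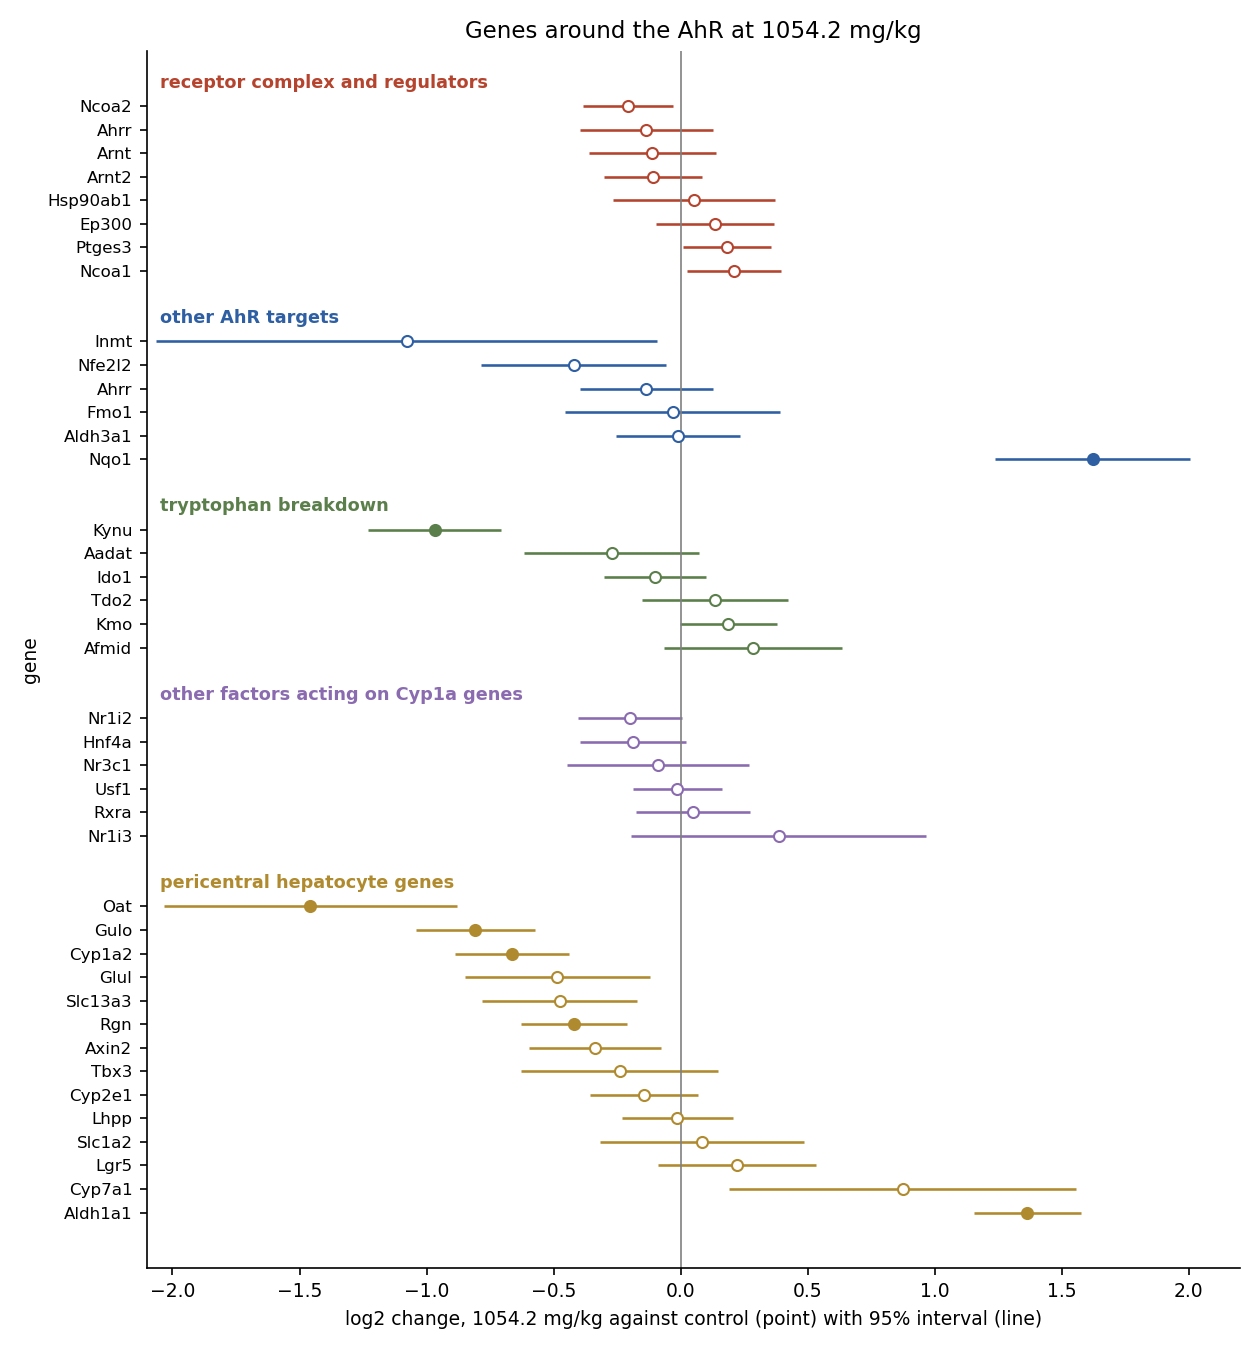
Log2 change at 1054.2 mg/kg against controls with its 95% interval for the measured genes of 5 lists around the receptor, filled where the limma adjusted p was under 0.05. Nqo1 and Aldh1a1 are filled on the right and Kynu, Oat, Gulo, Cyp1a2 and Rgn on the left, while all receptor partners are open. Ahrr stands in 2 lists and is drawn in both.

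Markers of other liver cells moved at this and lower doses. Of 8 measured Kupffer cell and macrophage markers, 6 passed as lower at 1054.2 mg/kg, against 1.44% of all probe sets. The mean of this list lay -0.59 to -0.56 log2 from the control mean in treated rats, against -0.22 to 0.24 in controls. Stellate cell markers gave 4 of 10 lower and endothelial markers 2 of 7, while Epcam rose among 5 cholangiocyte markers and Cela1 fell among 5 pancreas markers. Markers of T and NK cells, B cells, neutrophils and red cells gave 0 calls at that dose. Of 2 measured red cell markers, 2 had a limma unadjusted p under 0.05 there, against 15.1% of all probe sets. Their median change was -0.84 log2. The red cell list mean lay -1.37 to -0.10 from the control mean, against -0.45 to 0.56 in controls, so it overlapped them. The macrophage list was low at lower doses too, with 0 calls. Its list means were -0.64 to -0.48 at 132 mg/kg, -0.34 to -0.24 at 263.6 mg/kg and -0.51 to -0.26 at 527.1 mg/kg. All of these lay below every control. So did the stellate means at 263.6 mg/kg (-0.62 to -0.27, against -0.23 to 0.12 in controls). The endothelial means did so at 263.6 mg/kg (-0.40 to -0.29) and 527.1 mg/kg (-0.33 to -0.23), against -0.19 to 0.14 in controls. No background share was computed for list means. At 263.6 mg/kg the mean of 3 neutrophil markers lay 0.39 to 1.14 above the control mean, against -0.17 to 0.25 in controls, and S100a9 passed as higher (1.46 ± 0.30, limma adjusted p 0.0339). At 527.1 mg/kg the calls were Gpr182 (endothelial, -0.50 ± 0.12) and Epcam (0.55 ± 0.12). Of all probe sets, 0.428% passed at 263.6 mg/kg and 1.68% at 527.1 mg/kg. These marker genes were named after their values were seen. The list mean of 7 hepatocyte markers at 1054.2 mg/kg lay -0.07 to -0.05 from the control mean, against -0.02 to 0.05 in controls. It was below every control there, as at 132 mg/kg (-0.08 to -0.05) and 263.6 mg/kg (-0.11 to -0.08). At 1054.2 mg/kg 0 of these markers passed, with 0 at a limma unadjusted p under 0.05. In whole liver, fewer cells of a type and less RNA per cell cannot be told apart, and the part of these shifts in the Cyp1a1 and Cyp1a2 results was not tested.

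Cyp1a1 and Cyp1a2 lie side by side on rat chromosome 8 with 0 other named genes between them in the RefSeq annotation, so the nearest measured genes on each side were read too. Csk, Cplx3, Scamp2 and Mpi on one side and Edc3, Clk3, Arid3b and Ubl7 on the other gave 0 of 8 calls at 1054.2 mg/kg in limma. The count of 1 gene at an unadjusted p under 0.05 is not read as a result, as 15.1% of all probe sets had such a p. That gene was Csk, a kinase that restrains Src, at 0.29 ± 0.09 log2 (SE; adjusted p 0.113). In the trend, Csk rose by 0.07 per dose step with a limma adjusted p of 0.00788, where 5.05% of all probe sets passed. Without the control group its slope was 0.09, but it did not pass (limma adjusted p 0.18).

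Genes whose values followed the pair over the 20 arrays were taken by Pearson's r, as the 5 most alike for each. These are descriptions over arrays that share their dose groups and normalisation. For Cyp1a1 they were Maff (r = 0.925), Nol3 (0.915), Ggt1 (0.913), Grin2c (0.882) and Hmox1 (0.882), with Spearman's rho of 0.677 to 0.802. With replicate 1 at 263.6 mg/kg and replicate 3 at 1054.2 mg/kg left out, the arrays farthest from the Cyp1a1 median, their r was 0.602 to 0.823. Ggt1, a glutathione-cleaving enzyme, and Hmox1, haem oxygenase, rose by 1.34 ± 0.21 and 1.30 ± 0.23 log2 (SE) at 1054.2 mg/kg.

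For Cyp1a2 the most alike were Ldha (r = 0.878), Cbs (0.875), Avpr1a (0.873), Slc22a8 (0.863) and Lsr (0.863), with rho of 0.839 to 0.923. Avpr1a, a vasopressin receptor, and Slc22a8, an organic anion transporter, changed by -1.49 ± 0.20 and -1.40 ± 0.16 log2 (SE) at 1054.2 mg/kg. The most opposite were Acsm5 (r = -0.914), Pigv (-0.876), Vav2 (-0.869), Ugt2b34l1 (-0.862) and Golm1 (-0.855). Without 1054.2 mg/kg replicates 1 and 2, the arrays farthest from the Cyp1a2 median, r was 0.745 to 0.913 for the alike genes and -0.903 to -0.802 for the opposite ones.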

How the data were processed

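Liver RNA of 20 rats was hybridised to Affymetrix arrays, and groups came from the dose in the labels. The authors deposited RMA values on the log2 scale, 1 per probe set, and RMA is named in the submitters' processing notes. Its version and the set of arrays it was run on are not stated in these sources. RMA compresses large changes, so folds are on the array scale. Precision is limited by the number of arrays.

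The 57 array control probe sets were left out and the remaining 31042 were fitted in limma 3.58.1 (R 4.3.3), with 1 mean per dose group over all arrays and moderated variances (14 residual and 5.75 prior degrees of freedom). Two-sided p-values were adjusted by Benjamini-Hochberg with a threshold of 0.05. They covered each dose against the controls, neighbouring doses and a slope on the rank of dose. The within-array difference used an exact permutation test. The p-values measure spread between rats. The fit was tested on simulated data.

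Symbols came from the array annotation, with 20826 probe sets of 1 symbol, 436 of several and 9780 unnamed here. Of those with 1 symbol, 20758 were matched to RefSeq GRCr8. A gene outside the members was read from its brightest probe set. Named genes were the members, listed genes past the threshold at any dose or else that of largest change at 1054.2 mg/kg, the nearest 4 measured genes on each side of the pair, and the 5 genes of closest pattern (for Cyp1a2 also the 5 most opposite). Other listed genes are named for their roles and were chosen after their values were seen. Members and lists were chosen with earlier results of these data known. Alternatives covered dim probe sets, 1 probe set per gene, centring, quantile normalisation, moderation, array weights, smaller fits, a replicate block, RNA quality, log dose and leaving out arrays or groups.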

Additional observations from a re-analysis of the deposited data

How the results depend on the processing

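Apart from single left-out rats, Cyp1a1 and Cyp1a2 at 1054.2 mg/kg and in the trend kept direction and call in 47 of 50 alternative fits. The 3 that lost the call were trends without the control group (Cyp1a1 0.277, Cyp1a2 -0.117) and without the 1054.2 mg/kg group (Cyp1a1 0.130). Cyp1b1, Ahr and Tiparp passed in none of 118 such fits, and 5 values turned, all in the trend. Tiparp 1385407_at was -0.0038 with a replicate block, -0.0076 without the control group and -0.047 without the 1054.2 mg/kg group. Ahr 1369146_a_at and 1369147_at were -0.0054 and 0.0040 without the control group. The groups left out of the trend, and the pair of arrays below, were chosen after seeing the data. No cause of these differences was tested.

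Counts of probe sets past the threshold moved more, from 2, 21, 133, 520 and 1024 at the rising doses, 4 for 1054.2 against 527.1 mg/kg, 0 for the other neighbouring doses and 1569 in the trend. Without dim probe sets, which left out Cyp1a1 and every other member but Cyp1a2 and Tiparp 1374446_at, they were 46 at 132 mg/kg and 2 for 1054.2 against 527.1 mg/kg. With 1 probe set per gene, 2 passed for 527.1 against 263.6 mg/kg. Centred medians gave 75 at 263.6 mg/kg, and repeated quantile normalisation gave 50 at 132 and 221 at 263.6 mg/kg. Moderation with trend and robust settings gave 12 at 132 mg/kg. Array weights, which gave 1054.2 mg/kg replicate 3 a weight of 6.72, yielded 12, 37, 885, 1188 and 6439 at the rising doses, 656 for 1054.2 against 527.1 mg/kg, where Cyp1a1 then passed (1.77, limma adjusted p 0.000909), and 5700 in the trend. Fits of 1 dose and the controls gave 11 at 66 and 826 at 527.1 mg/kg. RNA quality as a covariate gave 839 at 527.1 mg/kg, 2 for 263.6 against 132 mg/kg and 8 for 1054.2 against 527.1 mg/kg. Without the 2 arrays of the highest 3′ minus 5′ difference, 11 passed at 132 mg/kg, 56 at 263.6 mg/kg, and 1 each for 132 against 66 and 263.6 against 132 mg/kg. The trend had 138 without the control group and 920 without the 1054.2 mg/kg group.

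Same-numbered rats did not deviate together: of 15 pairs of a treated rat and the control of the same number, 2 had a correlation over 0.1 (range -0.268 to 0.114), and the numbers mark no shared source in the labels. The replicate block gave 78, 283 and 614 calls at 263.6, 527.1 and 1054.2 mg/kg, 1 for 1054.2 against 527.1 mg/kg and 930 in the trend, and kept the Cyp1a1 and Cyp1a2 calls, while Rgn at 1054.2 mg/kg lost its call (limma adjusted p 0.104), as did Aldh1a1 at 132 mg/kg (0.0762), Oat at 263.6 and 527.1 mg/kg (0.0939 and 0.0908) and Gulo at 527.1 mg/kg (0.13). Oat at 263.6 mg/kg also lost its call with centred medians (0.0511) and with trend and robust moderation (0.071), Oat at 527.1 mg/kg with that moderation (0.058), and Aldh1a1 at 132 mg/kg in the fit of that dose and the controls (0.102).

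With single rats left out, the counts ran from 0 to 3, 6 to 1482, 38 to 193, 212 to 509 and 405 to 1069 at the rising doses, 1 to 8 for 1054.2 against 527.1 mg/kg, 0 to 1 for 263.6 against 132 mg/kg and 0 to 2 for 527.1 against 263.6 mg/kg. The 1482 came without 132 mg/kg replicate 3, and at 1054.2 mg/kg the count was 405 without replicate 3, 529 without replicate 2 and 647 without control replicate 4. Cyp1a1 changes ran from 0.846 to 1.62 at 1054.2 mg/kg, 0.30 to 0.83 at 263.6 mg/kg, -0.11 to 0.27 at 132 mg/kg, -0.19 to 0.20 for 132 against 66 mg/kg and -0.43 to 0.094 for 527.1 against 263.6 mg/kg. Cyp1a2 ran from -0.089 to 0.075 for 263.6 against 132 mg/kg. Tiparp 1374446_at ran from -0.30 to 0.022 at 1054.2 mg/kg, and the trends of Ahr 1369147_at and Tiparp 1385407_at from -0.018 to 0.00070 and -0.027 to 0.019. The within-array difference ran from 0.669 to 1.11, 0.600 to 1.0 and 1.62 to 2.22 at 263.6, 527.1 and 1054.2 mg/kg.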
